A study of Rattus norvegicus with 36 samples.

Results

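The retinoid genes described here are 9 genes that store, carry, oxidise, degrade or sense vitamin A: Lrat, Rbp4, Rdh16, Rdh10, Dhrs3, Aldh1a1, Aldh1a7, Cyp26a1 and Rarb. They were chosen by name with earlier results of these data known, so the shares of members called are a description. A member was counted as measured where a probe set of the array was annotated with its symbol and no other. That gave 8 of the 9 genes, out of 14217 genes named on the array, and 9 of the 31042 probe sets tested, since Rdh10 had 2. Aldh1a7, a near-identical neighbour of Aldh1a1 among the rodent aldehyde dehydrogenases, was not analysed here, because no probe set carried its symbol alone. Whether the Aldh1a1 probe set also binds Aldh1a7 transcripts was not tested.

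Each of 36 liver samples from male Harlan Sprague Dawley rats was hybridised to its own one-colour Affymetrix array, which reads the 3′ ends of transcripts, and the samples formed 6 groups of 6. The vehicle group received corn oil alone. In the other groups the oil carried the flame retardant hexachlorocyclopentadienyl-dibromocyclooctane (HCDBCO), at 0.05 mg/kg in the lowest group, then 0.54 mg/kg, 5.41 mg/kg, 54.1 mg/kg and, in the highest, 541 mg/kg. All animals were 7 weeks old at the start and were dosed by gavage at 5 ml/kg once a day on 5 days. The left liver lobe was taken 1 day after the last dose, and the design sets every dose against vehicle, gene by gene.

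Values are log2 signals, so a difference of 1 is a doubling of signal; levels of different probe sets were not compared as amounts of RNA. Array medians ran from 5.06 to 5.16. One array, 54.1 mg/kg replicate 5, stood apart, with an upper quartile of 6.94 against 7.03 to 7.13 on the 35 others. The tissue label was borne out by the 9 measured hepatocyte markers, whose mean levels (9.28 to 14.7) all lay above 5.11, the median over all probe sets, while those of 0 of 3 fat cell markers did. The mean level of those hepatocyte markers was 13.20 to 13.31 at 541 mg/kg and 13.34 to 13.49 in vehicle samples, ranges that do not overlap. Among single probe sets, 0.744% had groups that did not overlap in that comparison. The mean level was 13.29 to 13.41 at 0.05 mg/kg, 13.30 to 13.41 at 0.54 mg/kg, 13.32 to 13.49 at 5.41 mg/kg and 13.29 to 13.36 at 54.1 mg/kg. Each of these ranges overlapped vehicle and also reached below it. Of the 9 markers, 0 passed a false discovery rate (FDR) of 5% in limma, against 0.155% of all probe sets. At an unadjusted p under 0.05, 2 were lower, Tat by −0.47 and Apoa1 by −0.17, against 4.58% of all probe sets. Alb, Ttr and Apob differed by 0.00, 0.01 and −0.00. The mean was higher than in vehicle for 2 of the 9 (all probe sets 53.3%).

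As background, the liver holds most of the body's vitamin A. Hepatocytes release retinol into blood on a carrier protein, and stellate cells store it as retinyl esters. Retinol is oxidised reversibly to retinaldehyde by retinol dehydrogenases, retinaldehyde is oxidised irreversibly to retinoic acid by aldehyde dehydrogenases, and retinoic acid activates nuclear receptors until enzymes of the Cyp26 family degrade it.

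At 541 mg/kg, Aldh1a1, which makes retinoic acid from retinaldehyde and also oxidises other aldehydes, rose 1.60-fold. The other 7 measured genes, which cover storage, transport, the retinol dehydrogenase step, degradation and a receptor, did not pass the test at any dose. Of the 9 member probe sets, 1 passed the FDR of 5%, against 0.155% of all probe sets in that comparison. An unadjusted p under 0.05 in limma was reached by 3 members (Aldh1a1, Lrat and Rarb), against 9.07% of all probe sets. The median difference of the members was 0.0036 on the log2 scale, against 0.0076 over all probe sets, and 5 of the 9 were higher than vehicle, against 53.3% of all probe sets.

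At 54.1 mg/kg, 0 of the 9 passed the FDR in limma (all probe sets 0.0741%), and 1, Aldh1a1, had an unadjusted p under 0.05 (all probe sets 9.2%). At 5.41, 0.54 and 0.05 mg/kg, 0 of the 9 passed the FDR and 0 had an unadjusted p under 0.05; all probe sets gave 0 calls at the FDR and 4.83%, 4.18% and 3.02% at the unadjusted p in the same dose order. Between 541 and 54.1 mg/kg, 0 of the 9 passed the FDR and 0 had an unadjusted p under 0.05, against 0.00322% and 4.76% of all probe sets. All dose comparisons share the same 6 vehicle samples.

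**Figure D1:**
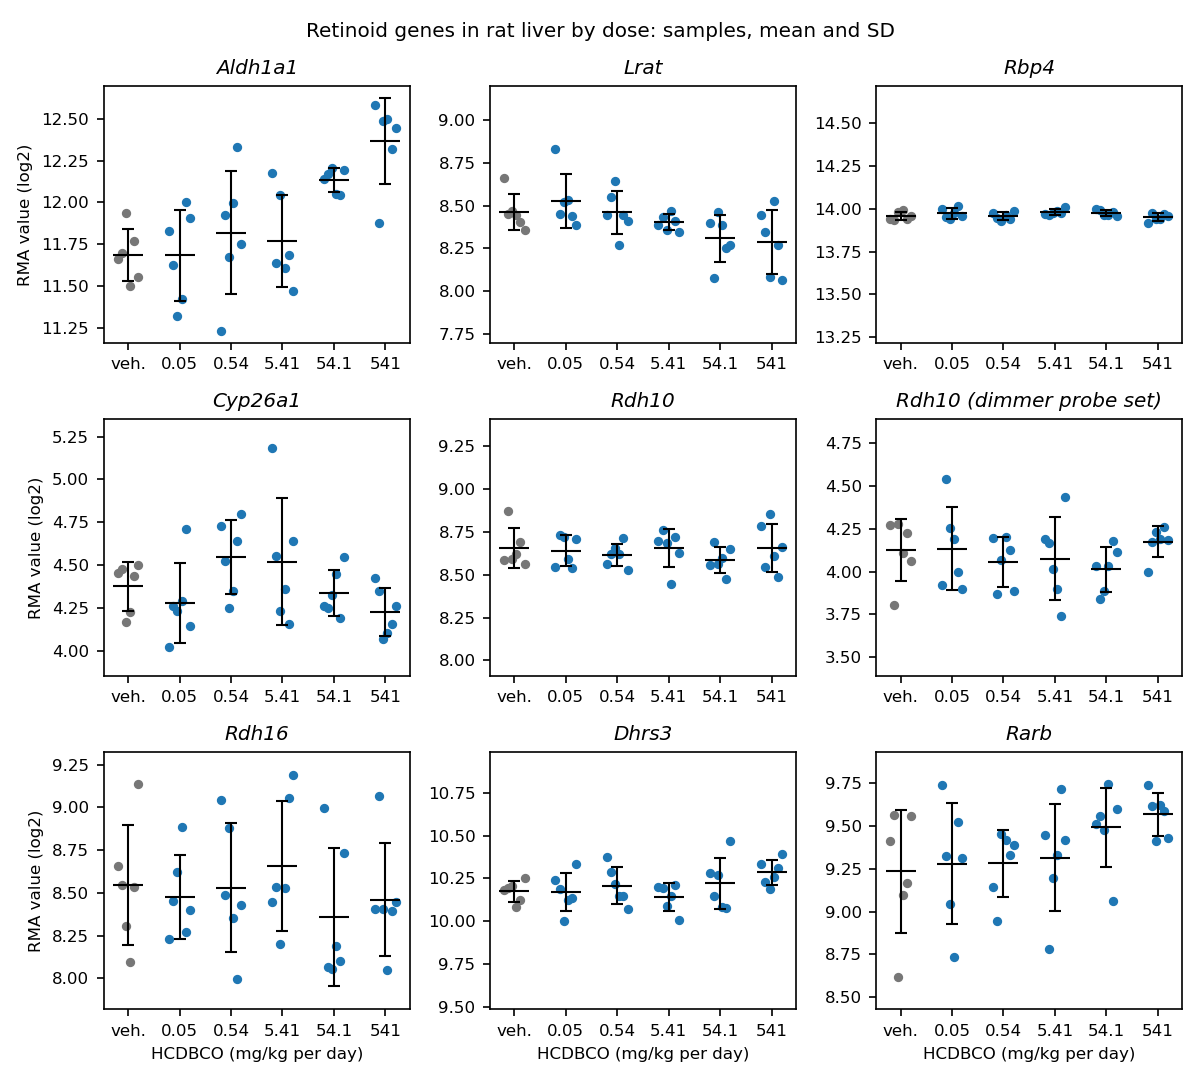
Log2 signal (vertical axis) of the 9 member probe sets in each of the 36 samples, by dose (horizontal axis, mg/kg per day; veh. is corn oil alone), with the mean and SD of each group of 6 drawn over the points; panels differ in level and cover at least 1.5 log2 units. Aldh1a1 is highest at 541 and 54.1 mg/kg, Rbp4 forms a flat line near 14, and Rdh16 is spread widely within every group.

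Lrat esterifies retinol for storage and in liver is mainly a stellate cell gene. Its signal was 8.06, 8.31 and 8.53 (lowest, median and highest) at 541 mg/kg, against 8.36, 8.45 and 8.66 in vehicle samples. Samples at 54.1 mg/kg gave 8.08, 8.33 and 8.46. The groups overlapped at both doses: 4 of 6 samples at 541 mg/kg and 3 of 6 at 54.1 mg/kg lay below every vehicle sample. The difference from vehicle was −0.18 ± 0.08 at 541 mg/kg (limma's standard error; 95% confidence interval −0.33 to −0.02, adjusted p = 0.468) and −0.16 at 54.1 mg/kg (95% confidence interval −0.31 to 0.00, adjusted p = 0.546). The 3 lower doses had group means of 8.53, 8.46 and 8.40 from 0.05 to 5.41 mg/kg, against 8.46 in vehicle.

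In whole liver, fewer stellate cells and less Lrat RNA per stellate cell cannot be told apart. All 14 listed stellate markers were measured, and 12 of them lay above the median over all probe sets (Gfap and Ngfr did not). Their mean level was 6.52 to 7.13 at 541 mg/kg and 6.65 to 6.90 at 54.1 mg/kg, against 6.64 to 6.99 in vehicle samples. The log2 of their summed signal, in which bright markers such as Col3a1 weigh most, was 11.98 to 12.64 at 541 mg/kg. It was 12.06 to 12.37 at 54.1 mg/kg, against 12.14 to 12.50 in vehicle samples. The ranges overlapped at both doses, and 0 of the 14 passed the FDR in limma at either. At an unadjusted p under 0.05, 1 was higher and 0 were lower at 541 mg/kg (all probe sets 4.49% and 4.58%). At 54.1 mg/kg, 0 were higher and 4 were lower (all probe sets 4.52% and 4.68%). Those 4 were Des, Pdgfrb, Colec11 and Ecm1, with differences of −0.23, −0.20, −0.16 and −0.25 beside the −0.16 of Lrat; their part in the Lrat difference was not tested. Lrat was also set against the mean of all 14 stellate markers across the 36 samples, taken as deviations from their group means. The relation had r = 0.267 and rho = 0.280 (permutation p = 0.202 and 0.145; adjusted p = 0.694 and 0.472 over 24 such relations), and r = 0.388 without the 2 samples farthest from the marker median.

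Rbp4, the carrier that takes retinol from hepatocytes into blood, had the steadiest signal of the members. It was 13.92, 13.95 and 13.98 at 541 mg/kg, against 13.93, 13.95 and 13.99 in vehicle samples. Over all 36 samples it spanned 0.102, and its SD within groups was 0.0227. The difference at 541 mg/kg was −0.01, with a 95% confidence interval of −0.07 to 0.06, or 0.951-fold to 1.04-fold (adjusted p = 0.975). Its mean of 13.97 is close to the highest value of the whole table, 14.7, and whether the probes were near saturation was not tested.

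The reversible step between retinol and retinaldehyde was covered by Rdh16 and Rdh10, retinol dehydrogenases, and by Dhrs3, a reductase that turns retinaldehyde back into retinol. Rdh16 was 8.05, 8.41 and 9.06 at 541 mg/kg, against 8.10, 8.54 and 9.13 in vehicle samples. The groups covered nearly the same range, and the difference was −0.08 ± 0.19 (95% confidence interval −0.47 to 0.30, adjusted p = 0.933). Its SD within groups, 0.352, was higher than that of 97.8% of probe sets.

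The brighter Rdh10 probe set was 8.49, 8.64 and 8.85 at 541 mg/kg, against 8.56, 8.61 and 8.87 in vehicle samples, a difference of 0.00 (95% confidence interval −0.12 to 0.13, adjusted p = 0.993). The dimmer Rdh10 probe set, with a mean of 4.10, lay below the median over all probe sets and differed by 0.05 ± 0.10 (adjusted p = 0.930). Dhrs3 was 10.19, 10.28 and 10.39 at 541 mg/kg, against 10.08, 10.19 and 10.25 in vehicle samples. All 6 samples at 541 mg/kg lay above the vehicle mean and 4 lay above every vehicle sample, but the difference of 0.11 ± 0.06 did not pass (95% confidence interval −0.02 to 0.24, adjusted p = 0.614). The differences at 54.1 mg/kg were −0.19 for Rdh16, −0.07 and −0.11 for the Rdh10 probe sets and 0.05 for Dhrs3, with adjusted p between 0.790 and 0.874.

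Aldh1a1, the enzyme of the irreversible step, was the one member that passed. Its signal was among the brightest on the array, with a mean above that of 98.7% of probe sets. It was 11.50, 11.68 and 11.94 (lowest, median and highest) in vehicle samples, 11.32, 11.73 and 12 at 0.05 mg/kg, and 11.23, 11.84 and 12.33 at 0.54 mg/kg. The series went on with 11.47, 11.66 and 12.18 at 5.41 mg/kg, 12.04, 12.15 and 12.20 at 54.1 mg/kg, and 11.88, 12.47 and 12.58 at 541 mg/kg. The 3 lowest doses overlapped vehicle from both sides, whereas all 6 samples at 54.1 mg/kg and 5 of 6 at 541 mg/kg lay above every vehicle sample.

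The mean was 12.37 ± 0.256 at 541 mg/kg, against 11.69 ± 0.156 in vehicle (SD, n = 6 each), a difference of 0.68 ± 0.14 (95% confidence interval 0.40 to 0.96, or 1.32-fold to 1.94-fold; limma adjusted p = 0.0189). Of the 12 fits that each left out 1 sample of either group, 6 kept the call. It was lost without 541 mg/kg replicate 1 (adjusted p = 0.0705), 3 (0.0500, just above the threshold), 4 (0.0615) or 6 (0.0506) and without vehicle replicate 4 (0.0659) or 6 (0.0532); the differences in the 12 fits ran from 0.64 to 0.78. In 541 mg/kg replicate 2, which was the lowest of its group at 11.88, Aldh1a1 still lay above the vehicle mean.

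At 54.1 mg/kg the mean was 12.13 ± 0.0712 (SD, n = 6), and the difference from vehicle was 0.45 ± 0.14 (95% confidence interval 0.17 to 0.72, or 1.12-fold to 1.65-fold). Its adjusted p was 0.256, so it did not pass, although the 2 groups did not overlap, which held for 0.596% of all probe sets. With only these 2 groups in the fit it passed (adjusted p = 0.0328), and without the array that stood apart the difference was 0.46 (adjusted p = 0.259). The step between 541 and 54.1 mg/kg was 0.24 (95% confidence interval −0.04 to 0.51, adjusted p = 0.999). The differences from vehicle at 5.41, 0.54 and 0.05 mg/kg were 0.08, 0.13 and −0.00. In limma's moderated F-test across the 6 groups, Aldh1a1 was the 1 member past the FDR (F = 8.29, adjusted p = 0.0369; all probe sets 0.0999%); the call was lost in 15 of 36 fits without 1 sample, with adjusted p up to 0.135. In the same test 2 members, Aldh1a1 and Lrat, had an unadjusted p under 0.05, against 5.99% of all probe sets.

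**Figure D2:**
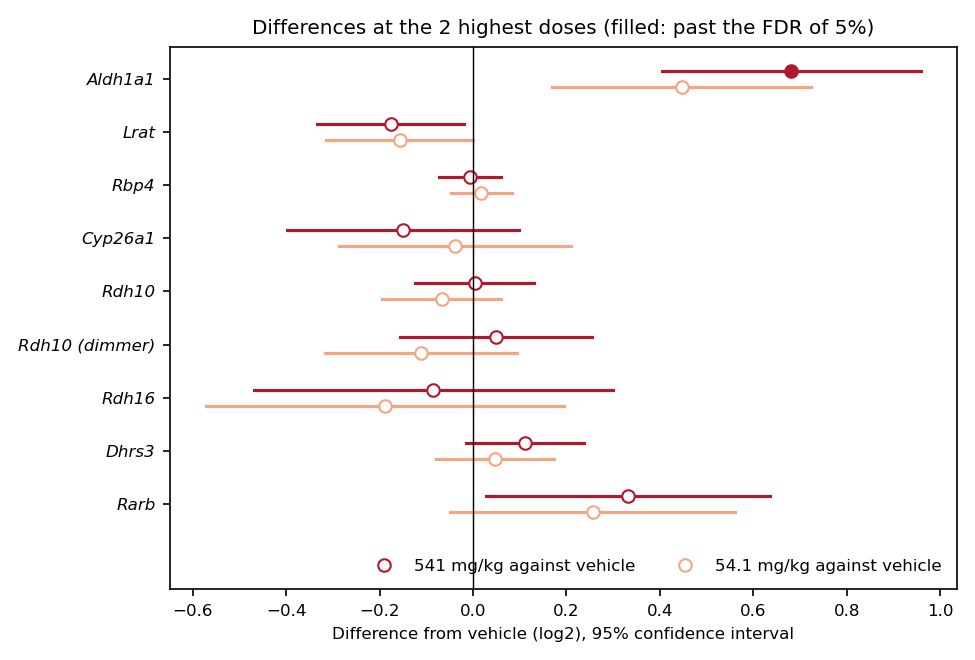
Difference from vehicle on the log2 scale (horizontal axis) with its 95% confidence interval for each member probe set, at 541 mg/kg (dark, upper) and 54.1 mg/kg (light, lower); a filled point passed the FDR of 5%. The one filled point is Aldh1a1 at 541 mg/kg, 0.68, and the intervals of Rbp4, Cyp26a1, Rdh10, Rdh16 and Dhrs3 include 0 at both doses.

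The bases before the Aldh1a1 start are shown because it is the member that rose. The RefSeq start used (assembly GRCr8) lies within the gene, which spans chr1:227426939-227579497. The stretch is the 250 bases upstream of that start, chr1:227537370-227537619, plus strand, 5′ to 3′. Nuclear receptors bind hexamers such as AGGTCA or AGTTCA, and both strands were searched for these and, as an addition made after the promoters had been read, for their variants GGTTCA or GGGTCA. The capitals mark the only match, a GGGTCA read on the opposite strand.
Aldh1a1 upstream: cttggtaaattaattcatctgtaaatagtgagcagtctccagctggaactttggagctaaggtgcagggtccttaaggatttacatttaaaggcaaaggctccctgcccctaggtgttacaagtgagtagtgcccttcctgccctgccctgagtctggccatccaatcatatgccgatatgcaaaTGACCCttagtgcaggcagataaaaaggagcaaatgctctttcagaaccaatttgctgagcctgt
Such hexamers are common: 44.4% of the 33469 promoters in the RefSeq table (250 bases before to 50 after the start) held at least 1 when the variants were counted, and 27.9% held AGGTCA or AGTTCA, which the Aldh1a1 promoter lacks.

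Cyp26a1, which breaks down retinoic acid, and Rarb, a retinoic acid receptor, are both known to be switched on by retinoic acid through a direct repeat of 2 such hexamers spaced by 5 bases (DR5). Their repeats are shown because these genes are known as readouts of the pathway's product; the capitals mark the hexamers, on the plus strand of GRCr8. The Cyp26a1 window is chr1:244883724-244883753, upstream of the start. The Rarb window is chr15:11336410-11336439, just after the RefSeq start used. That start lies within the gene, which spans chr15:10837252-11482037.
Cyp26a1 DR5: taaagaTGAACTttgggTGAACTaatttgt
Rarb DR5: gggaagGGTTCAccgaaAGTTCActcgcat
The Cyp26a1 repeat, which is AGTTCA read on the opposite strand, lies at bases −92 to −76 and the Rarb repeat at bases 25 to 41 from the start. A DR5 built from AGGTCA or AGTTCA was found in 10 of the 33469 promoters (0.0299%). The Rarb repeat was found only with the added variants, with which 128 promoters (0.382%) held a DR5. Of the 8 measured members, 6 had a promoter in the table, and Aldh1a1, Lrat, Rbp4 and Dhrs3 had no DR5 in it under either search.

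Neither DR5 gene passed the test. Cyp26a1 was 4.07, 4.21 and 4.42 at 541 mg/kg, against 4.16, 4.44 and 4.50 in vehicle samples. The groups overlapped, with 3 of 6 samples at 541 mg/kg below every vehicle sample, and the difference was −0.15 ± 0.12 (95% confidence interval −0.40 to 0.10, adjusted p = 0.763). Its mean, 4.38, lay below the median over all probe sets, where RMA signals compress real differences. The highest single value, 5.18, was at 5.41 mg/kg, and the differences at 0.54 and 5.41 mg/kg were 0.17 and 0.14 (limma adjusted p = 0.999 and 0.977).

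Rarb was 9.41, 9.60 and 9.74 at 541 mg/kg, against 8.62, 9.29 and 9.56 in vehicle samples. All 6 samples at 541 mg/kg lay above the vehicle mean and 4 above every vehicle sample. The difference was 0.33 ± 0.15 (95% confidence interval 0.03 to 0.64, or 1.02-fold to 1.55-fold), with an adjusted p of 0.486. Rarb at 54.1 mg/kg was 9.06, 9.53 and 9.74, a difference of 0.26 (adjusted p = 0.626). The SD within groups was 0.126 at 541 mg/kg, against 0.361 in vehicle, where the lowest sample was 8.62.

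The members were also set against each other from sample to sample, as deviations from their group means, so that dose did not enter. Of 28 pairs of genes, 2 stood out, both with opposite deviations, and the other 26 had an adjusted p of at least 0.899 for r. Aldh1a1 and Rdh16 had r = −0.635 and rho = −0.551 (n = 36, 100000 permutations within groups, p = 4e-05 and 0.00075; adjusted over the 28 pairs 0.00112 and 0.0105). Without the 2 samples farthest from the Aldh1a1 median, 0.54 mg/kg replicates 1 and 5, r was −0.550. Without the array that stood apart it was −0.654. From vehicle up to 541 mg/kg, r within the groups of 6 was −0.214, −0.829, −0.943, −0.695, 0.224 and −0.870. The sign was thus negative in 5 of the 6 groups, and the exception was 54.1 mg/kg, where Aldh1a1 varied least. The −0.870 at 541 mg/kg includes replicate 2, whose deviations of −0.493 in Aldh1a1 and 0.603 in Rdh16 were the farthest from 0 in that group. That sample was kept in the fits above, and r without it was not computed. Over all 14216 other genes, 7 (0.0492%) had an r with Aldh1a1 as low as that of Rdh16, and 4 (0.0281%) had an r with Rdh16 as low as that of Aldh1a1; counting either sign, the shares were 0.190% and 0.148%.

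Rbp4 and the brighter Rdh10 probe set had r = −0.623 and rho = −0.669 (p = 2e-04 and 6e-05; adjusted 0.0028 and 0.00168, same permutation test), and −0.620 without the 2 samples farthest from the Rbp4 median. It was negative in 6 of the 6 groups, from −0.131 at 54.1 mg/kg to −0.951 at 0.05 mg/kg. Among all other genes, 0.0633% had an r with Rbp4, and 0.260% an r with Rdh10, at least as far from 0 in either sign. The deviations of Rbp4 behind it spanned 0.0805. With the upper quartile of each array regressed out, r was −0.644 for Aldh1a1 and Rdh16 and −0.613 for Rbp4 and Rdh10. With the gap between the 3′ and 5′ beta-actin control signals, a sign of RNA degradation, regressed out it was −0.642 and −0.618. Within groups the beta-actin gap had r = −0.097 with Aldh1a1, −0.032 with Rdh16, 0.113 with Rbp4 and −0.105 with Rdh10. The upper quartile had r = 0.325, −0.087, −0.139 and 0.232 in the same order. With relations this weak, taking either measure out could change the 2 values only a little. Other sources of the 2 correlations were not tested.

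**Figure D3:**
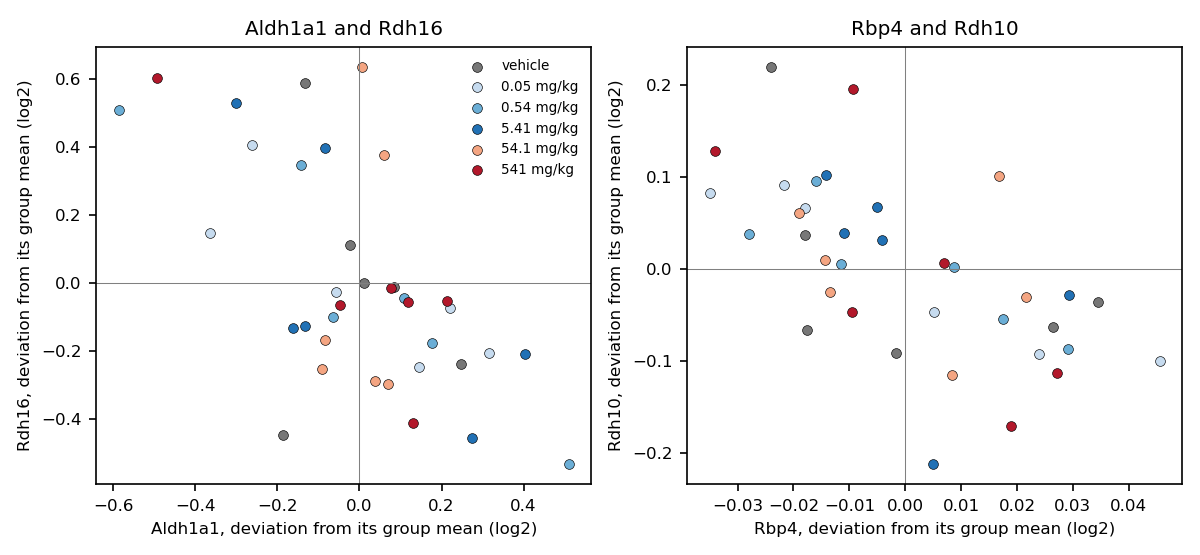
Deviations from the group mean (log2) of Aldh1a1 against Rdh16 (left) and of Rbp4 against the brighter Rdh10 probe set (right) in 36 samples, coloured by group. Samples high in the gene on the horizontal axis tend to be low in the other, with r = −0.635 on the left and −0.623 on the right; the horizontal axis of Rbp4 is narrow, the deviations of Rbp4 spanning 0.0805 log2 units.

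Genes with the pattern most like that of Aldh1a1 were picked by Pearson's r over the 36 samples among 14216 genes, as a description. They were Gsta3 (r = 0.913), a glutathione transferase, Abcc3 (0.891), an exporter of conjugates, Ephx1 (0.831), microsomal epoxide hydrolase, Akr1d1 (0.820), a steroid reductase of bile acid synthesis, and Gsta1 (0.809), another glutathione transferase. None of the 5 is a retinoid enzyme. Within groups, so without the dose, r was 0.830, 0.758, 0.620, 0.733 and 0.629 in the same order. At 541 mg/kg, Abcc3 was higher by 2.14 (limma adjusted p = 3.53e-05), Gsta3 by 1.34 (0.0263) and Ephx1 by 0.52 (0.0152), while the differences of Akr1d1, 0.18, and Gsta1, 0.16, did not pass (0.332 and 0.189). Aldh1a1, with 0.68, thus lay between Gsta3 and Ephx1.

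The 5 genes most like Lrat were Pdgfra (r = 0.758), a growth factor receptor of stellate cells and fibroblasts, Colec11 (0.669), a collectin on the stellate list, Septin4 (0.657), a cytoskeletal protein of stellate cells, Abi3bp (0.654), an extracellular matrix protein, and Rbms3 (0.642), an RNA-binding protein. Within groups r was 0.786, 0.583, 0.597, 0.532 and 0.550. None of the 5 passed the test at 541 mg/kg, where their differences ran from −0.18 for Rbms3 to −0.05 for Pdgfra. The likeness of Lrat and Pdgfra was as high within groups as across them.

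**Figure D4:**
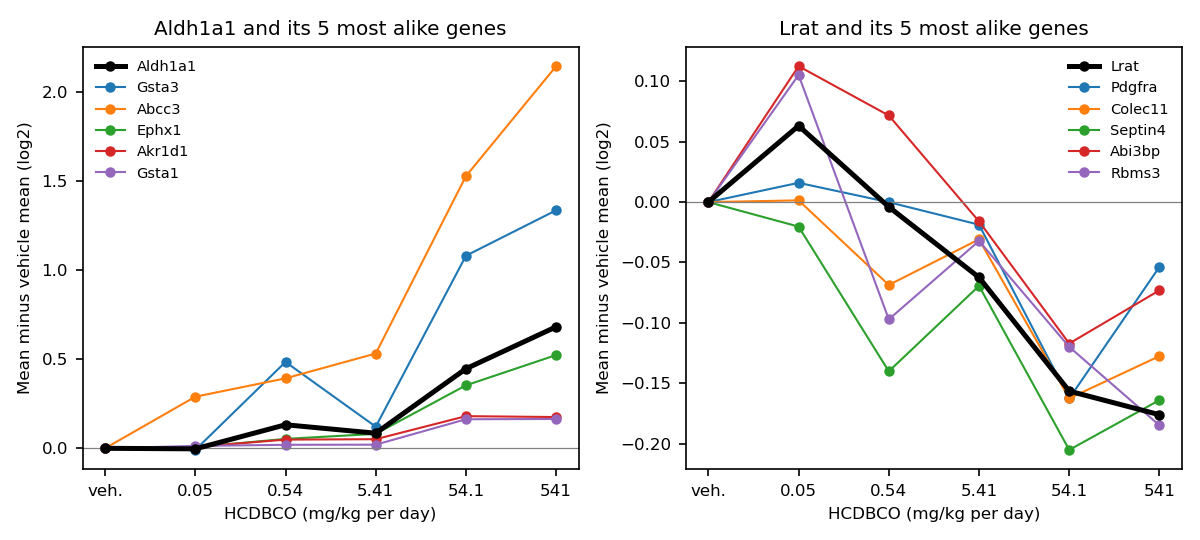
Mean of each dose group minus the vehicle mean (log2, vertical axis) against dose (horizontal axis, mg/kg per day), for Aldh1a1 (left, thick black) and Lrat (right, thick black) with the 5 genes most alike to each. Aldh1a1 and its 5 lie near or above 0 and are high at 54.1 and 541 mg/kg; the vertical axis on the right covers a far smaller range.

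Beyond the members, 34 of 46 listed genes of retinoid handling were measured. At 541 mg/kg 0 passed the FDR in limma, 2 were higher and 1 lower at an unadjusted p under 0.05 (all probe sets 4.49% higher and 4.58% lower), and the median difference was 0.02. The nearest to the threshold was Aox1, an aldehyde oxidase that can make retinoic acid, at 11.19, 11.40 and 11.72 at 541 mg/kg, against 10.72, 11.11 and 11.16 in vehicle samples. The 2 groups did not overlap, which held for 0.744% of all probe sets, and the difference was 0.39 ± 0.09 (adjusted p = 0.0525). Aox1 differed by 0.20 at 54.1 mg/kg (adjusted p = 0.491).

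Pnpla3, a lipase that releases retinol from retinyl esters in human stellate cells, differed by 0.72 ± 0.29 at 541 mg/kg (adjusted p = 0.410) and by 1.06 ± 0.29 at 54.1 mg/kg (adjusted p = 0.183). Its samples ranged from 4.65 to 7.03 at 541 mg/kg and from 5.31 to 6.95 at 54.1 mg/kg, against 4.43 to 5.30 in vehicle. Only the 54.1 mg/kg group lay wholly apart from vehicle, as did 0.596% of all probe sets. The other Pnpla3 probe sets differed by 0.39 and 0.20 at 541 mg/kg and by 0.71 and 0.42 at 54.1 mg/kg. Rbp7, a cellular retinol-binding protein, differed by −0.30 at 541 mg/kg (adjusted p = 0.305) at a dim mean signal of 3.99, and Ces1e, a carboxylesterase, by 0.11 (adjusted p = 0.562). Of the 34, 0 passed the FDR at 54.1 mg/kg, 4 were higher and 2 lower at the unadjusted p (all probe sets 4.52% and 4.68%), and the median was 0.04.

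Of 21 listed retinoid receptors and genes known to respond to retinoic acid, 18 were measured, and 0 passed the FDR at 541 mg/kg in limma. Of these, 0 were higher and 1 lower at an unadjusted p under 0.05 (all probe sets 4.49% and 4.58%), so the count is near that of all probe sets. The mean was higher than in vehicle for 6 of the 18 (all probe sets 53.3%), and the median was −0.06. The one with the unadjusted p under 0.05 was Cpt1a, which brings fatty acids into mitochondria, with a difference of −0.37 ± 0.14 (adjusted p = 0.335) and −0.48 on its other probe set. Rxrg and Rxrb, partners of the retinoic acid receptors, differed by 0.15 and −0.11, and Fabp5, a carrier of fatty acids and retinoic acid, by −0.28, with adjusted p between 0.594 and 0.670. The other Rxrg probe set differed by 0.04 (limma adjusted p = 0.932). Of the 18, 0 passed the FDR at 54.1 mg/kg, 0 had an unadjusted p under 0.05 (all probe sets 9.2%) and the median was −0.01.

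**Figure D5:**
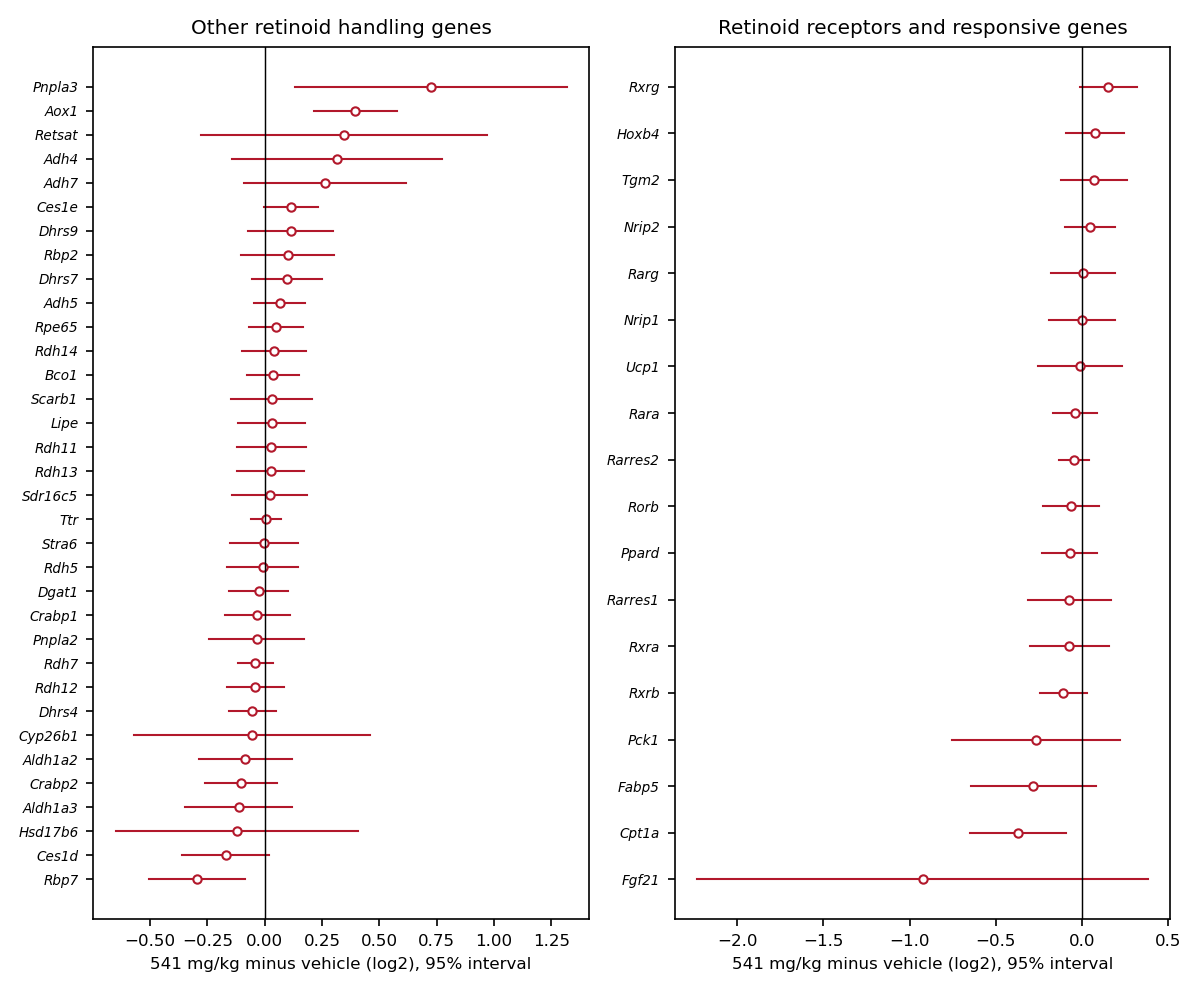
Difference between 541 mg/kg and vehicle (log2, horizontal axis) with its 95% confidence interval for the 34 other retinoid handling genes (left) and the 18 retinoid receptors and responsive genes (right), sorted by size; open points did not pass the FDR of 5%. All points are open, Aox1 and Pnpla3 lie farthest above 0 on the left, and Fgf21, a hormone of the fasted liver, has by far the widest interval on the right.

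Among the other marker lists at 541 mg/kg, all 7 measured sinusoidal endothelial markers were lower than vehicle in the mean (all probe sets 46.7%), 3 were lower at an unadjusted p under 0.05 (4.58%) and 0 passed the FDR in limma (0.155%). Their mean level was 8.27 to 8.51 at 541 mg/kg, against 8.34 to 8.77 in vehicle samples. The pericentral hepatocyte list averaged 9.01 to 9.14 at 541 mg/kg, against 9.03 to 9.28 in vehicle samples, but its members went both ways. Of the 7 measured, 2 were lower (Oat by −0.49 and Glul by −0.31) and 1 higher (Slc1a2 by 0.34) at an unadjusted p under 0.05. The shares of all probe sets were 4.58% lower and 4.49% higher. In limma 0 of the 7 passed the FDR (all probe sets 0.155%). The mean was higher than in vehicle for 3 of 6 Kupffer cell, 4 of 5 bile duct cell and 3 of 3 fat cell markers (all probe sets 53.3%). Of these 3 lists, 0 markers had an unadjusted p under 0.05 (all probe sets 9.07%), a count too small to tell from that share. The gap between the 3′ and 5′ beta-actin signals was 1.18 ± 0.0872 at 541 mg/kg, against 1.13 ± 0.0758 in vehicle (SD, n = 6 each). The part of these shifts, and of the shift in hepatocyte markers given above, in the differences of Aldh1a1, Lrat and Rarb was not tested.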

How the data were processed

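The values were log2 signals as deposited, made by the authors with RMA and the affy package per the submitters' processing notes; versions are not given in the sources used here. RMA corrects background, normalises between arrays and summarises probes, and it compresses differences of dim probe sets. Raw intensities were not used, so the log base was not checked. The 57 control probe sets were left out of 31099. Names came from the array's annotation: 20826 probe sets had 1 symbol, 436 several and 9780 none. Several probe sets of a gene were led by the brightest.

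A one-way design over all 36 samples was used, with lmFit and eBayes of limma 3.58.1 (R 4.3.3) in place of the R package the design text names. Tests were two-sided, with Benjamini-Hochberg adjustment over 31042 probe sets at an FDR of 5%; every adjusted p of a difference is limma's, every ± beside a difference is its standard error, and every group has n = 6. The labels give no animal numbers and no batch, so the spread behind each p-value is that of these samples and may be technical. Precision is limited by the 6 arrays a group: at 541 mg/kg against vehicle the standard error had a median of 0.0799. Samples were not treated as paired by replicate number, since the labels give the numbers no meaning. The fit was tested on simulated data.

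Members and gene lists were chosen with earlier results of these data known. From each list up to 4 genes with the smallest p at 541 mg/kg were named, plus any past the FDR; for the 2 members with the smallest F-test p, the 5 most correlated genes were named. Fgf21 was named after its values were seen. Correlations used 100000 permutations within groups. In addition, 24 relations set the 8 genes against stellate markers, array upper quartile and beta-actin. The lowest adjusted permutation p for r among them was 0.0916. It was shared by Cyp26a1 and Dhrs3 with the stellate marker mean (r = −0.428 and −0.440) and by Aldh1a1 with the upper quartile (r = 0.325). Promoters are RefSeq's, assembly GRCr8.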

Additional observations from a re-analysis of the deposited data

Results flagged for a closer look

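Of 54 groups of 6 values (9 member probe sets in 6 groups), 4 held a sample whose gap to the nearest of the others was a larger share of the group's range than Dixon's 95% critical value for 6 samples allows. Chance alone marks about 1 group in 20. Aldh1a1 was 11.88 in 541 mg/kg replicate 2, below the 12.32 to 12.58 of the other samples of that dose. Lrat was 8.83 in 0.05 mg/kg replicate 1, above the 8.39 to 8.53 of its group, and 8.66 in vehicle replicate 1, above the 8.36 to 8.47 of the others. Of the 5 genes picked as most like Lrat over these same samples, Pdgfra was also the highest of its group in both of them, at 8.08 and 7.85, while Colec11, Septin4, Abi3bp and Rbms3 were highest in only 1 of them. The dimmer Rdh10 probe set was 4.0 in 541 mg/kg replicate 1, below the 4.17 to 4.26 of the others.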

How the results depend on the processing

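The Aldh1a1 call at 541 mg/kg held in 9 of 9 other settings (adjusted p 0.00436 to 0.0430), the replicate block among them (0.0319), and its difference was 0.61 with the 3 lowest doses in place of vehicle; the count of members past the FDR ran from 0 to 1 over the fits without 1 sample. At 54.1 mg/kg that count was 0, but 1 with only the groups compared (adjusted p 0.0328; over all Aldh1a1 alternatives there 0.0328 to 0.5005). In the F-test the count was 1, but 0 with each array centred on its median (adjusted p 0.0516), with a mean-variance trend and robust fit (0.0639), without moderation of the variances (0.0978) and with the replicate block (0.0720), and 0 to 1 over the fits without 1 sample. The causes were not tested. At 5.41, 0.54 and 0.05 mg/kg and between 541 and 54.1 mg/kg the count was 0 in every setting run.

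Signs turned only for differences near 0. At 541 mg/kg, Rbp4 was 0.0046 after quantile normalization and −0.0121 to 0.000229 over the fits without 1 sample. The brighter Rdh10 probe set was −0.0031 with median centring and −0.0356 to 0.0475 over those fits, the dimmer one −0.0164 to 0.0831, and Rdh16 −0.205 to 0.0330. At 54.1 mg/kg, Dhrs3 was −0.00278 to 0.0751. Leaving out dim probe sets removed Cyp26a1 and the dimmer Rdh10 probe set. The labels do not say what the replicate numbers stand for. Of 90 same-numbered pairs, 24 had a correlation of deviations over 0.1 (−0.26 to 0.233), and 7 of 36 samples correlated best with their own number. The median correlation was 0.0125 for same and −0.00437 for different numbers. These values cannot show whether the numbers mark a batch. The planned test of Aldh1a1 against Aldh1a7 was not run, because no probe set carried the Aldh1a7 symbol alone.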
